A study of Rattus norvegicus with 6 samples.

Results

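Resident Kupffer cells are the macrophages that live in the sinusoids of the liver. Their signature was followed here through 10 rat genes, Clec4f, Timd4, Cd163, Marco, Vsig4, Cd5l, C1qa, C1qb, C1qc and Adgre1, in 3 male Sprague-Dawley rats given bromodichloromethane at 200 mg/kg/day and 3 given corn oil. The genes were chosen by name, and the probes by matching the accession on the array to RefSeq symbols of the rat assembly GRCr8. The match found 9 of the 10 genes, on 15 of 61657 probes. No probe matched Timd4, so it is not analysed here. Bromodichloromethane is a trihalomethane formed when drinking water is chlorinated, and corn oil is the vehicle it was set against. Total liver RNA of each animal was labelled with Cy3 and read on a 1-colour Agilent array. The rats were bought at 5 weeks of age. The labels give 9 weeks of administration in one place and measurement at 28 days in another, so the length of exposure is not settled here.

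Kupffer cells take up bacteria, aged red cells, immune complexes and debris from portal blood, and they do so through lectins, scavenger receptors and complement receptors on their surface. In mice, they are kept as a distinct population by the transcription factors PU.1 (gene Spi1), LXR-alpha (Nr1h3) and SpiC and by signalling through the receptor Csf1r. In mouse models of liver injury they can be lost and replaced by macrophages from blood monocytes, and macrophages marked by Trem2 and Gpnmb can gather beside them.

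Promoter sequences are shown for the gene most restricted to Kupffer cells, Clec4f, and for Cd5l and C1qb, 2 members whose promoters hold the PU box, the core letters GAGGAA bound by PU.1. They come from RefSeq, build GRCr8, and run from 250 bases before to 50 bases after the annotated start. In the Clec4f promoter (chr4:117696358-117696657, minus strand) the capitals mark a stretch of 54 bases that is repeated exactly, with the second copy starting 54 bases after the first. A repeat at least this long was found in 95 of 33469 rat promoters (0.284%), and the median longest repeat was 8 bases. In the promoters of Cd5l (chr2:175088665-175088964, plus strand) and C1qb (chr5:154407778-154408077, minus strand) the capitals mark the PU box on either strand.
Clec4f: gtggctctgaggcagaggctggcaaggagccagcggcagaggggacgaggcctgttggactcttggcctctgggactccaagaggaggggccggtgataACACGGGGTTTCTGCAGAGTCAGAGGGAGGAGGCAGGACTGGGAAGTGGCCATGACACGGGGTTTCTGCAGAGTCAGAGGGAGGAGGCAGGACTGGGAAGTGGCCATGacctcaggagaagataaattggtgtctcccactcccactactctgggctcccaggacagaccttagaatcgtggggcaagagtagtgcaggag
Cd5l: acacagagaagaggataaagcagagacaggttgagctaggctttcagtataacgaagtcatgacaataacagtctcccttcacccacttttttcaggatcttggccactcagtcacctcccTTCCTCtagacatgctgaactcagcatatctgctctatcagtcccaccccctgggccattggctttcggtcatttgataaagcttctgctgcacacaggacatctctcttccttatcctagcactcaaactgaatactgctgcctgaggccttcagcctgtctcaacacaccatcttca
C1qb: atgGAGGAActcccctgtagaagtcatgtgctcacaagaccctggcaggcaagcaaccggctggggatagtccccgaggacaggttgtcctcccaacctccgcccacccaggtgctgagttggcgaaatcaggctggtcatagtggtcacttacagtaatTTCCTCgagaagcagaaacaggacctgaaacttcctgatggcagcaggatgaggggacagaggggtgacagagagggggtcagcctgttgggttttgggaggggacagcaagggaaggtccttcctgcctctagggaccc
The PU box was in 4 of the 9 member promoters available (Marco, Cd5l, C1qb and Adgre1) and in 27.6% of all promoters. These 9 are not the 9 measured genes, since they include Timd4 and lack C1qc. The letters AGGTCA, the hexamer of nuclear receptor sites, were in 2 of 9 (Clec4f and Timd4) against 16.2% of all promoters. Both strands were searched. The motifs can share 1 letter at their ends, but no matches overlapped in the member promoters. Of 3 motifs searched, the third is not reported here, so the 2 given are not the whole search. All were chosen with the results and sequences known. A match is a description of the letters and not a binding site.

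Liver identity was clear on every array, since all 10 hepatocyte markers on the fixed list, among them Alb and Ttr, were well above background in all 6 animals. The 75th percentile of the processed signal was 747 to 825 fluorescence units in treated animals and 670 to 758 in corn oil animals, and no non-control probe was saturated. Slide 1 carried treated replicate 1 together with the 3 corn oil arrays, and slide 2, with a scan of its own, carried treated replicates 2 and 3. By limma, 2715 of 28995 features (9.36%) had an adjusted p under 0.05. Of these, 1727 (5.96% of all features) were up in treated livers and 988 (3.41%) were down. Of the same 28995 features, median centring gave 2204 higher and 765 lower, and spike-in scaling 12685 higher and 311 lower. These counts over all features are the background for each count of genes given below under the same setting.

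None of the 9 measured Kupffer cell genes passed the test in treated livers. By limma 0 of 9 had an adjusted p under 0.05, against 9.36% of all features, and 0 of 9 had an unadjusted p under 0.05, against 27.5% of all features. Log2 fold changes ran from -0.24 (Clec4f) to 0.36 (Cd5l), with 6 above 0 and 3 below. Of all features 50.2% were above 0. The median was 0.06 for the members and 0.0014 over all features. The 95% interval of each of the 9 changes lay inside a 2-fold change in either direction, although that of Marco came close to it. A p that misses the threshold does not show that the groups were alike, and in whole liver fewer Kupffer cells and less RNA per cell cannot be told apart. Every level is given over its own array's 75th percentile. With spike-in scaling, which moved the median of all features up to 0.48 on the log2 scale, 5 of the 9 genes passed as higher (Cd163, Cd5l, C1qa, C1qb and C1qc), and the members' median lay 0.06 above that shift. A large share of all features also passed as higher with that scaling, as counted above, so 5 of 9 is close to the background.

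**Figure D1:**
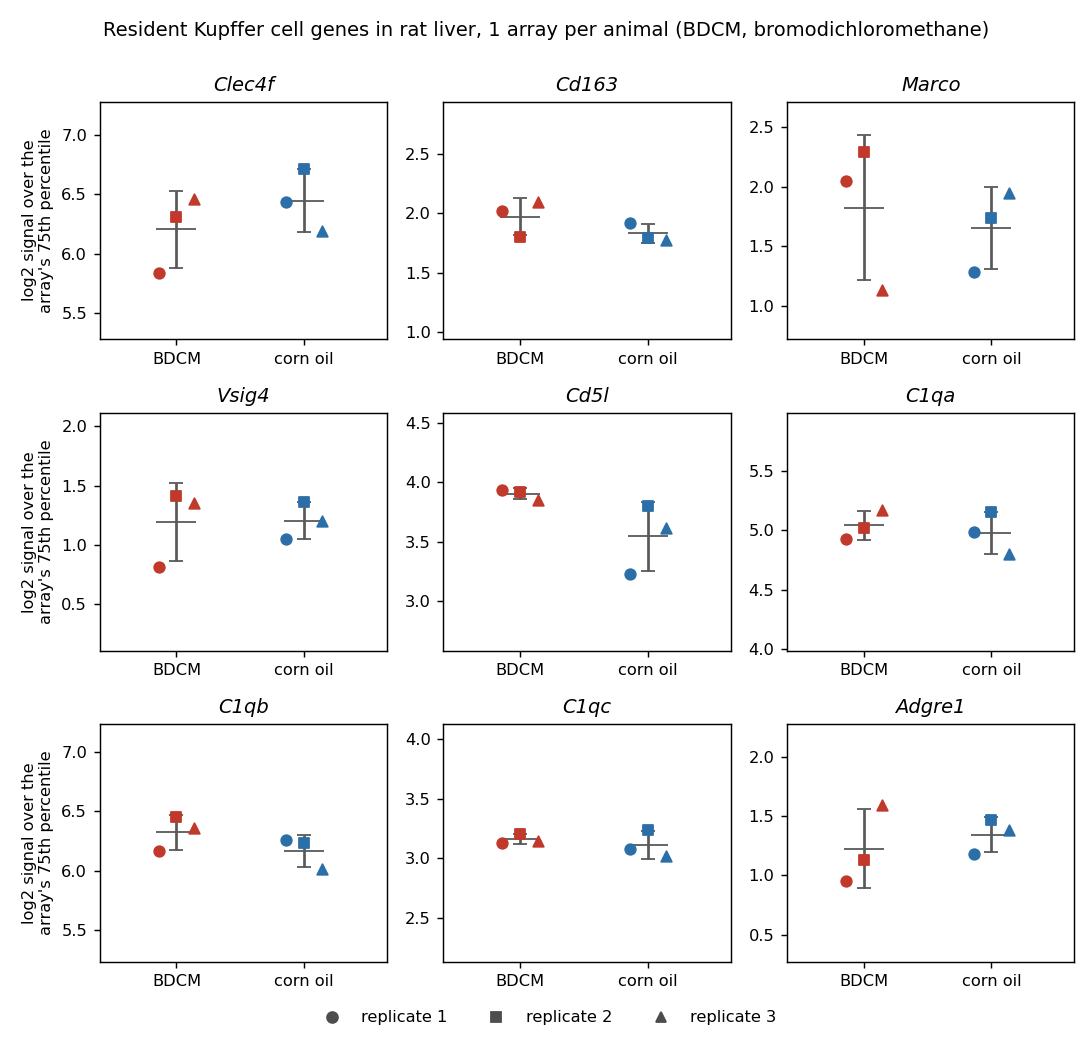
Each panel plots 1 Kupffer cell gene, with the log2 signal over the array's 75th percentile on the vertical axis (every panel spans 2 log2 units), treated animals in red on the left and corn oil animals in blue on the right. Grey bars give the mean and SD of 3 animals. The groups overlap for every gene except Cd5l, and Marco has the widest spread among treated animals.

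The lectin Clec4f, a C-type lectin first described on rat Kupffer cells, had a log2 signal over the 75th percentile of 5.84, 6.31 and 6.46 in treated animals and 6.43, 6.71 and 6.19 in corn oil animals. Treated replicate 1 was the lowest of the 6, and the groups overlapped. The means were 6.20 ± 0.32 in treated and 6.45 ± 0.26 in corn oil livers (SD, n = 3 each). The log2 fold change was -0.24 (SE 0.21, 95% interval -0.74 to 0.26), which did not pass by limma (adjusted p = 0.49). On slide 1, treated replicate 1 lay 0.61 below the corn oil mean. The fit with slide as a block, which takes the treatment effect from that 1 array, gave -0.61 with an interval of -1.17 to -0.04 and an adjusted p of 0.22. Without treated replicate 1 the change was -0.06.

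The scavenger receptors gave no call. Cd163, the receptor for haemoglobin bound to haptoglobin, had a log2 signal of 2.02, 1.80 and 2.10 in treated animals and of 1.92, 1.79 and 1.78 in corn oil animals on the brightest of its 3 probes. Treated replicate 2 lay among the corn oil animals, and the change was 0.14 (SE 0.11, interval -0.12 to 0.41, adjusted p by limma 0.45). The other 2 probes of Cd163 gave changes of -0.09 and -0.11, the second with a signal of 365 fluorescence units in corn oil replicate 2 and of 176 and 179 units in the other corn oil animals. The mean over the 3 probes stood at -0.02. No direction can therefore be given for this gene.

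Marco, a scavenger receptor with a collagen-like stalk that binds bacteria, was the least even member. It had a log2 signal of 2.05, 2.30 and 1.13 in treated animals and of 1.28, 1.74 and 1.95 in corn oil animals. Treated animals held both the highest and the lowest value, which differed 2.24-fold, against 1.59-fold among corn oil animals. Its SD within groups, 0.50, was larger than that of 92.5% of all features. The change was 0.17 (SE 0.33, interval -0.64 to 0.97, adjusted p by limma 0.78). It was 0.52 without treated replicate 3, -0.07 without treated replicate 2 and -0.02 without corn oil replicate 1. Its interval reached past 2-fold without treated replicates 1 or 3 or corn oil replicates 2 or 3, up to a log2 value of 1.26.

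Vsig4, the complement receptor CRIg that binds C3b and iC3b, had a log2 signal of 0.81, 1.41 and 1.35 in treated animals and of 1.05, 1.36 and 1.20 in corn oil animals. The highest and the lowest value were both in treated animals, and the change was -0.01 (SE 0.18, interval -0.46 to 0.43, adjusted p by limma 0.97). Its sign turned with median centring, with spike-in scaling, and without treated replicate 1 or corn oil replicate 2. Adgre1, which encodes the adhesion receptor EMR1 of the macrophage surface, had a log2 signal of 0.95, 1.13 and 1.60 in treated animals and of 1.18, 1.47 and 1.38 in corn oil animals. Here too the treated animals spanned all corn oil values. The change was -0.12 (SE 0.18, interval -0.57 to 0.33, adjusted p by limma 0.73), with the other sign under spike-in scaling and without treated replicate 1.

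Cd5l was the only member whose groups did not overlap. It encodes a secreted protein of the scavenger receptor cysteine-rich family that circulates with IgM. Its log2 signal was 3.94, 3.92 and 3.85 in treated animals and 3.23, 3.80 and 3.61 in corn oil animals. The means were 3.90 ± 0.05 in treated and 3.55 ± 0.29 in corn oil livers (SD, n = 3 each). Corn oil replicate 1 was the lowest of the 6, while the treated animals lay within 1.06-fold of each other. The groups failed to overlap for 34.4% of all features, and with a higher treated group for 18.4%, so 1 of 9 members is no more than the background. The change was 0.36 (SE 0.16, interval -0.02 to 0.73) and did not pass by limma (adjusted p = 0.20). A second probe gave 0.29, also without overlap. Without corn oil replicate 1 the change was 0.20. It kept its sign in all 20 alternatives and passed under spike-in scaling (adjusted p = 0.017).

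C1qa, C1qb and C1qc encode the 3 chains of C1q, which binds immune complexes and starts the classical complement pathway, and they lie next to each other on rat chromosome 5. C1qa had a log2 signal of 4.93, 5.02 and 5.17 in treated animals and of 4.98, 5.15 and 4.80 in corn oil animals. C1qb had 6.16, 6.45 and 6.36 in treated animals and 6.25, 6.23 and 6.01 in corn oil animals. C1qc had 3.13, 3.20 and 3.15 in treated animals and 3.08, 3.24 and 3.02 in corn oil animals. The groups overlapped for all 3 genes. Corn oil replicate 3 was the lowest of the 6 animals for each of them. The changes were 0.06 (SE 0.12, interval -0.24 to 0.36) for C1qa, 0.16 (SE 0.12, interval -0.13 to 0.44) for C1qb and 0.05 (SE 0.09, interval -0.18 to 0.28) for C1qc, with adjusted p-values by limma of 0.79, 0.44 and 0.77. C1qc was the most even member, with an SD within groups of 0.09, below that of most features (16.2% had a smaller one). The other probes gave 0.10 for C1qa, 0.14 for C1qb and -0.01 for C1qc.

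**Figure D2:**
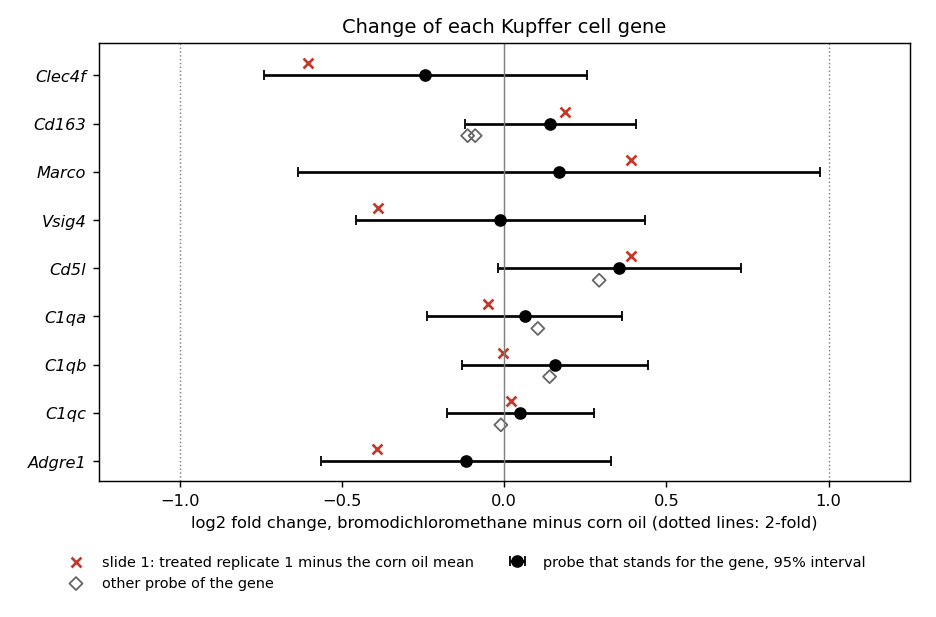
Log2 fold changes of the 9 measured Kupffer cell genes, treated minus corn oil, with the probe that stands for each gene as a black point with its 95% interval, other probes as open diamonds, and treated replicate 1 minus the corn oil mean on slide 1 as red crosses. All 9 intervals include 0 and lie between the dotted lines at 2-fold. The crosses of Clec4f, Vsig4 and Adgre1 lie furthest left, at -0.61, -0.39 and -0.39.

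Treated replicate 1 had the lowest value of the 6 animals for Clec4f, Vsig4 and Adgre1, while it was above the corn oil mean for Cd163, Marco, Cd5l and C1qc. Treated replicate 3 lay above the mean of the 6 arrays for 8 of the 9 genes, Marco being the exception. Corn oil replicate 3 held the lowest value of 4 genes, Cd163 and the C1q chains. The members summed to between 195 and 241 times the 75th percentile in treated animals and to between 198 and 251 times in corn oil animals, so the ranges overlapped.

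The regulators of Kupffer cells gave 1 call in each direction over the 75th percentile, and 7 higher and none lower with spike-in scaling. Of 15 measured regulators 1 rose, 1 fell and 13 did not pass, and the median log2 fold change was -0.14 (0.34 with spike-in scaling). Of all features 5.96% were higher and 3.41% lower, and a large share was higher with spike-in scaling, so these counts are close to the background. Spi1, which encodes PU.1, rose by 0.47 (SE 0.10, adjusted p by limma 0.043). Rxra, the partner of LXR in DNA binding, stood at -0.51 over the 75th percentile (SE 0.10, adjusted p by limma 0.032) and at -0.03 with spike-in scaling. Nr1h3 stood at -0.34 (SE 0.09) and Csf1r at -0.15 (SE 0.08), and neither passed (adjusted p by limma 0.077 and 0.31). With spike-in scaling both were above 0. The call of Spi1 ended when any 1 animal was left out (adjusted p from 0.077 to 0.12), and that of Rxra ended in 5 of 6 such fits (adjusted p from 0.046 to 0.11), all but the one without treated replicate 1. No probe matched Spic.

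Several genes shared by macrophages and other leukocytes rose. Whether they differ from the Kupffer cell genes was not tested. Of 15 measured pan-leukocyte genes 5 rose, none fell and 10 did not pass, with a median log2 fold change of 0.45. Of all features 5.96% were higher. In this list 14 genes were above 0. The exception, Cd52, had the largest absolute change of the list at -1.15 (SE 0.47, adjusted p by limma 0.18), and its groups overlapped. The count of genes higher was 13 with spike-in scaling (median 0.93), 8 with median centring and 1 with slide as a block. It was 0 with the replicate number as a block and 0 without the filter on dim probes. The antigen presentation chain Cd74 rose by 0.88 (SE 0.14), the actin regulator Coro1a by 0.66 (SE 0.14), the signalling adaptor Tyrobp by 0.55 (SE 0.09) and Ly86 by 0.54 (SE 0.10), with adjusted p-values by limma of 0.022, 0.042, 0.024 and 0.026. Ptprc, the leukocyte antigen CD45, stood at 0.49 (SE 0.11, adjusted p by limma 0.0503), and the macrophage lysosomal protein Cd68 at 0.31 (SE 0.12, adjusted p by limma 0.16). The list summed to 193 to 215 times the 75th percentile in treated animals and to 148 to 161 times in corn oil animals, with no overlap. Between 0 and 1 of its genes passed when 1 animal was left out. That gene was Cd74, which passed without treated replicate 1 or 2.

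Several lipid-associated macrophage genes rose. Of 12 measured genes 4 rose, none fell and 8 did not pass, with a median of 0.48. Spike-in scaling gave 9 higher, and slide as a block gave 2, Mmp12 and Lgals3. Trem2, the lipid-sensing receptor of these cells, had a log2 signal of -2.11, -0.98 and -1.53 in treated animals and of -3.65, -3.43 and -3.64 in corn oil animals. The groups lay apart and the change was 2.03 (SE 0.28, adjusted p by limma 0.016). It ended without treated replicate 3 or corn oil replicate 2 (adjusted p 0.054 and 0.058). Gpnmb, a lysosomal glycoprotein, rose by 1.73 (SE 0.36, adjusted p by limma 0.037), and Lgals3, which encodes a galectin, by 1.5 (SE 0.29, adjusted p by limma 0.032). Gpnmb passed in only 1 of 6 fits that left out an animal, the one without treated replicate 3, and Lgals3 in 2, those without treated replicates 1 or 3 (adjusted p of 0.035 to 0.12 for Gpnmb and 0.029 to 0.10 for Lgals3). Mmp12, the macrophage elastase, had the largest change of the list at 4.39 (SE 0.37, adjusted p by limma 0.00477) and passed in all 6 such fits. It was well above background on only 2 of 3 corn oil arrays, so it entered the test through the treated group alone. With only probes well above background on all 6 arrays, 11 genes of the list were measured and 3 were higher. Both Trem2 and Mmp12 were smaller with normexp background correction, at 1.21 and 2.59, and still passed. Between 1 and 3 of the 12 genes passed without 1 animal, with 3 passing without treated replicates 1 or 3, 2 without treated replicate 2 or corn oil replicates 1 or 3, and 1 without corn oil replicate 2. The list summed to 135 to 198 times the 75th percentile in treated animals and to 97.1 to 111 times in corn oil animals. The part of these cells in the levels of the Kupffer cell genes was not tested.

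Other receptors by which macrophages clear particles gave 1 or 2 calls per list over the 75th percentile, where 5.96% of all features were higher. They gave more with spike-in scaling, where a large share of all features was higher too. Of 15 measured scavenger and clearance receptors 1 rose, none fell and 14 did not pass (median 0.08), against 8 higher and none lower with spike-in scaling. The riser was Clec7a, the beta-glucan receptor dectin-1. It was well above background in all 3 treated animals and in no corn oil animal, so it entered the test through the treated group alone. On the processed signal it was at least 2.16-fold higher. That bound sets the treated mean against the lowest signals well above background on the corn oil arrays. The adjusted p by limma (0.00949) belongs to the fitted value, which uses corn oil signals not well above background. With only probes well above background on all 6 arrays, 14 of these receptors were measured and 0 were higher. With normexp, to which that bound does not apply, Clec7a was 0.71 higher on the log2 scale, below the bound, and passed. Of 13 measured complement and Fc receptors 2 rose and none fell (median 0.14), against 8 higher with spike-in scaling. The 2 were Itgb2, the beta chain of complement receptor 3, by 0.55 (SE 0.09, adjusted p by limma 0.021) and Fcer1g, the signalling chain of Fc receptors, by 0.48 (SE 0.11, adjusted p by limma 0.044). Leaving out 1 animal ended the call of Fcer1g in all 6 fits (adjusted p from 0.069 to 0.14) and that of Itgb2 in all but the one without treated replicate 1 (adjusted p from 0.049 to 0.084). Of 10 iron and haem recycling genes 1 rose and none fell (median 0.18), against 5 higher with spike-in scaling. It was Slc48a1, a haem transporter, at 0.69 (SE 0.12, adjusted p by limma 0.025), which passed only without corn oil replicate 3 when 1 animal was left out (adjusted p from 0.046 to 0.089).

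The partners of C1q lay below 0, and whether they differ from the 3 C1q chains was not tested. The other 7 measured genes of the classical pathway, made largely by hepatocytes, had log2 fold changes under 0, with 1 past the threshold and a median of -0.46. With spike-in scaling that median was 0.02 and none passed. Which of the 2 scalings lies nearer the amount of RNA was not tested. C4bpa, the alpha chain of the C4b-binding protein, stood at -0.62 (SE 0.12, adjusted p by limma 0.030), and stood at -0.14 with spike-in scaling. Its call ended in 5 of 6 fits that left out an animal, all but the one without corn oil replicate 3 (adjusted p from 0.048 to 0.092). Sinusoidal endothelial markers, from the cells that line the same vessels, had 1 of 9 lower and none higher, with a median of -0.22 and 0.26 with spike-in scaling. The one was Lyve1, a hyaluronan receptor, at -0.56 (SE 0.11, adjusted p by limma 0.030), or -0.07 with spike-in scaling, and it passed in none of the 6 fits without 1 animal (adjusted p from 0.051 to 0.10). The hepatocyte list had 2 of 10 lower and none higher, with a median of -0.25 and 0.23 with spike-in scaling. They were Cps1 of the urea cycle at -0.62 (SE 0.11) and Serpina1, a protease inhibitor, at -0.50 (SE 0.08), with adjusted p-values by limma of 0.027 and 0.023. Spike-in scaling put them at -0.13 and -0.02, with none of the hepatocyte or endothelial genes lower and 1 of each list higher. Cps1 passed only without treated replicate 1, and Serpina1 in no fit, when 1 animal was left out (adjusted p from 0.038 to 0.098 and from 0.056 to 0.091).

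**Figure D3:**
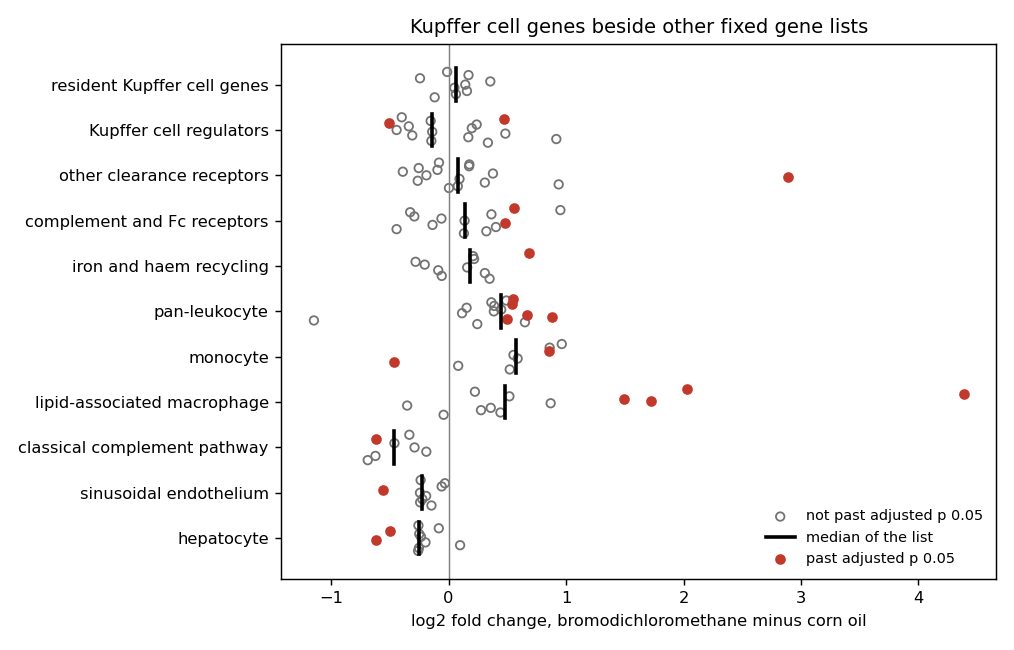
Each point is 1 measured gene of a list, with its log2 fold change (treated minus corn oil) on the horizontal axis, filled red where it passed an adjusted p of 0.05, and a black bar at the list's median. The Kupffer cell genes lie between -0.24 and 0.36 with no filled point. The point of the lipid-associated macrophage genes at 4.39 is Mmp12, which entered the test through the treated group alone and stood at 2.59 with normexp. The filled point of the clearance receptors beyond 2 is the fitted value of Clec7a, for which only a bound holds.

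Slide 2 held treated replicates 2 and 3 and no corn oil array. A fit that blocked on the slide ended 21 of the 26 calls named here and in the closing section. Among them were Clec7a (adjusted p by limma 0.067), Trem2 (0.069), Gpnmb (0.084), Cd74 (0.059) and Tyrobp (0.085). The 5 that still passed were Mmp12, Lgals3, Coro1a, S100a4 and Epb42.

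The result for the Kupffer cell genes was the same, with 0 of 9 past the threshold, under 19 of 20 alternative settings, and spike-in scaling gave 5. Fits by slide, with the replicate number as a block and without an animal called far fewer of all features than the main fit. A count of 0 of 9 says little in those fits. Across those 20 settings 7 of the 9 genes changed sign at least once, in 16 of the gene and setting pairs, and Cd5l and C1qc kept theirs.

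**Figure D4:**
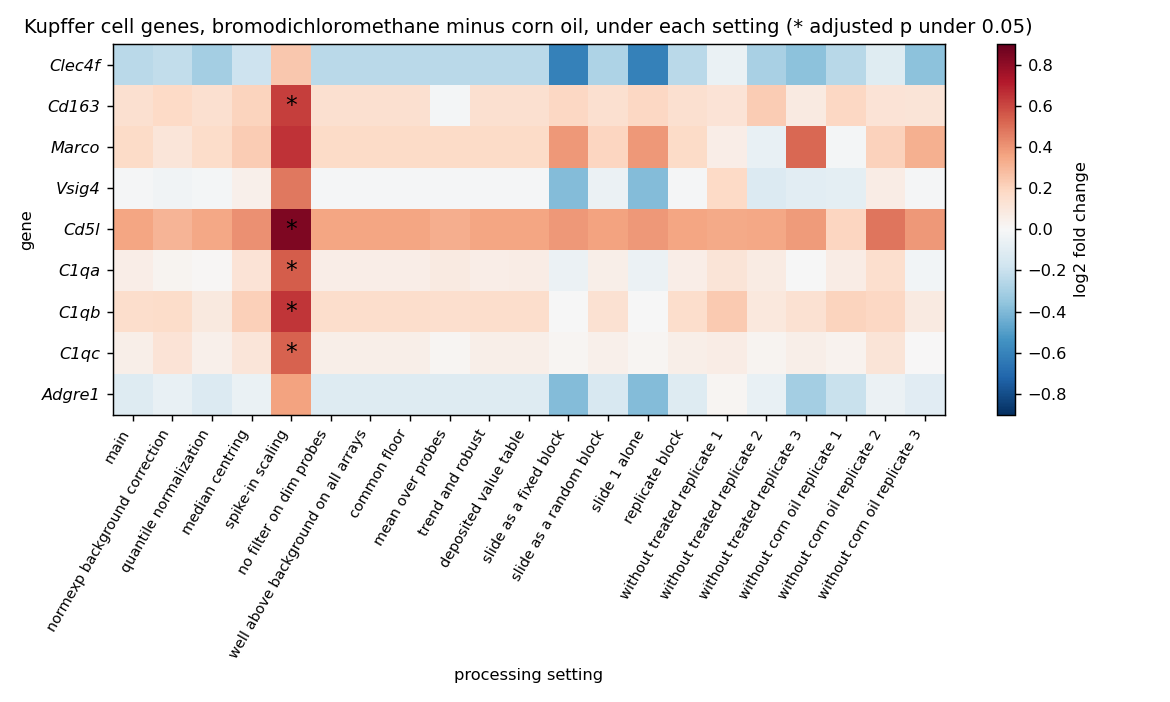
Log2 fold changes (treated minus corn oil) of the 9 Kupffer cell genes, by row, under the main setting and 20 alternatives, by column, in red above 0 and blue below 0. Asterisks mark an adjusted p under 0.05 and stand only in the column of spike-in scaling, for Cd163, Cd5l, C1qa, C1qb and C1qc.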

How the data were processed

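Per the labels' protocols, liver RNA of 6 rats was hybridised to 1 Agilent array each, and Agilent Feature Extraction 10.7 read the scans, per the submitters' processing notes. The deposited intensity values are background-subtracted per spot and not scaled between arrays, per the file headers. The ratio in the deposited value table equalled processed signal divided by the array's 75th percentile, within 1% for at least 96.4% of probes of each array. It is therefore linear and not centred on genes, with column medians of 0.0954 to 0.102, and served as an alternative.

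Flagged spots removed 27 probes. Log2 processed signals minus each array's 75th percentile were used. Probes well above background on all 3 arrays of a group were kept, and the brightest probe stood for a gene, giving 28995 features. Of 61657 probes, 27460 matched 1 symbol and 34197 none through unversioned RefSeq accessions of GRCr8, used for names, neighbours and promoters only, since the file headers name another build. The comparison used limma 3.58.1 under R 4.3.3 (lmFit and eBayes, two-sided, Benjamini-Hochberg over all features, threshold 0.05); SE is moderated, and 95% intervals are per gene. The fit was tested on simulated data. Arrays cover 3 animals a group, which limits the precision.

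The members and the gene lists were chosen with earlier results of these data known. Genes named are the 10 members, per list up to 4 that passed, by size of change (or, where none passed, the 2 of lowest p), and Csf1r, Cd68, Ptprc, Spi1, Nr1h3, Trem2 and Gpnmb. Cd52 and Cd79b are given besides, as list members that did not pass. The files hold no mean spot signal, so normexp, with an offset of 50, used the median signal. Same-numbered replicates were checked for pairing and the check is given with the alternatives.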

Additional observations from a re-analysis of the deposited data

How the results depend on the processing

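The count of 0 Kupffer cell genes past the threshold rose to 5 with spike-in scaling and was 0 in the other 19 settings and over all 15 probes tested one by one. It was 0 in each of the 6 fits without 1 animal. Several of these settings called far fewer of all features, as counted below, so a count of 0 says little there. The interval of Marco reached past 2-fold in 12 settings. That of Clec4f did so with slide as a block and on slide 1, where it spanned -1.28 to 0.07, Cd5l with spike-in scaling and on slide 1, and Vsig4 and C1qb with spike-in scaling. The 2715 features called became 12996 with spike-in scaling, 609 without the filter on dim probes, 350 with slide as a block, 120 on slide 1 alone, and 335 to 1232 when 1 animal was left out. Fewer arrays or fewer residual degrees of freedom enter the fits by slide and without an animal; for the other settings the cause was not tested. Of 26 named genes past the threshold, Clec7a, Mmp12 and Pax5 passed in all 6 fits without 1 animal, but with slide as a block Clec7a and Pax5 did not (adjusted p 0.067 and 0.054). Of the 26, 5 passed with that block and 0 on slide 1 alone. In the fits without 1 animal, Clec7a entered through the treated group alone. Fn1, at -0.46, stood at 0.0203 with spike-in scaling.

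With the replicate number as a block, 353 features and 0 Kupffer cell genes passed, and 3 of the 26 named genes, Clec7a, Mmp12 and Trem2. Deviations from group means of same-numbered animals correlated at 0.02 to 0.12 across features, and all 6 samples correlated best with their own number, but not every pair exceeded 0.1, so the numbers were not taken as pairs.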

Other observations

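Markers of other blood and lymphoid cells gave 1 or 2 calls per list over the 75th percentile, where 5.96% of all features were higher and 3.41% lower. The T and NK cell and the B cell lists gave more with spike-in scaling, where a large share of all features was higher too. Of 10 measured T and NK cell genes 2 rose and none fell, with a median log2 fold change of 0.42, against 9 higher and a median of 0.90 with spike-in scaling. They were the T cell surface genes Cd3e and Cd2, at least 1.33-fold and at least 1.47-fold higher (adjusted p by limma 0.026 and 0.038). Both were well above background in all 3 treated animals and in no corn oil animal, so they entered the test through the treated group alone. Their adjusted p-values belong to fitted values that use corn oil signals not well above background. With only probes well above background on all 6 arrays, 7 genes of the list were measured and 0 were higher. With 1 animal left out, Cd2 passed in none of 6 fits (adjusted p from 0.062 to 0.098) and Cd3e only without corn oil replicate 2 (adjusted p from 0.045 to 0.076). With normexp, to which those bounds do not apply, the log2 fold changes were 0.23 for Cd2 and 0.099 for Cd3e, below the bounds. Neither passed (adjusted p by limma 0.13 for Cd2 and 0.50 for Cd3e). Of 5 measured B cell genes 1 was lower and none higher, against 2 higher and none lower with spike-in scaling. The list did not go one way, since 3 of the 5 had a log2 fold change above 0 and the median was 0.18. Pax5, a B cell transcription factor, stood at -0.83 on the log2 scale (SE 0.09, adjusted p by limma 0.00842), a change of -0.35 with spike-in scaling (adjusted p 0.11), while the receptor gene Cd79b, at 0.18, did not pass. Among 6 red cell genes 1 was lower, none was higher, and the median was -0.68, or -0.19 with spike-in scaling. Epb42, a red cell membrane protein, was at -1.68 (SE 0.34, adjusted p by limma 0.036), and on slide 1 the list lay at a median of -0.97. Epb42 was well above background in 2 of 3 treated animals, so it entered the test through the corn oil group alone. It passed only without treated replicate 1 when 1 animal was left out (adjusted p from 0.039 to 0.094). With normexp it stood at -0.62 and passed. With only probes well above background on all 6 arrays, 5 red cell genes were measured and 0 were lower.

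Of 8 measured monocyte genes 1 rose and 1 fell, with a median of 0.57, against 5 higher, none lower and a median of 1.05 with spike-in scaling. S100a4, a calcium-binding protein of motile cells, rose by 0.86 (SE 0.15, adjusted p by limma 0.024), and Fn1, which hepatocytes also make, stood at -0.46 (SE 0.10, adjusted p by limma 0.045). Of 5 measured neutrophil genes 1 rose, Ncf1 of the NADPH oxidase, by 0.60 (SE 0.11, adjusted p by limma 0.029), with a list median of 0.43, against 4 higher with spike-in scaling. With 1 animal left out, Fn1 and Ncf1 passed in 0 of 6 fits (adjusted p from 0.087 to 0.12 and from 0.057 to 0.097) and S100a4 only without treated replicate 1 (adjusted p from 0.044 to 0.080). Stellate cell genes had 0 of 10 past the threshold with limma, with a median of -0.04, against 2 higher with spike-in scaling. Reln and Des, the 2 of lowest p, were at -0.33 and 0.31 (adjusted p 0.17 and 0.19). An unadjusted p under 0.05 was found for 1 of the 10, Reln, against 27.5% of all features. The bile duct list had 1 of 5 higher, against 2 with spike-in scaling. It was Epcam, at 1.12 (SE 0.18, adjusted p by limma 0.021). Epcam passed without treated replicate 1 and without corn oil replicates 1 or 3, but not without the other animals (adjusted p up to 0.083).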
